A study of Nicrophorus vespilloides with 60 samples.

Results

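The genes described here are the 150 whose level varied least across the larval heads of 46 families of the burying beetle *Nicrophorus vespilloides*. They were chosen from the expression values themselves. Each count was divided by its library's total and given per 1000000 counts (CPM), and genes with a mean CPM from 10 to 500 over the 46 libraries were kept. The 150 with the lowest coefficient of variation (CV, the SD divided by the mean) were taken. They are 150 of 6191 genes in that range of means and of 13761 genes in the table. The low CV is therefore how the genes were found and is described without a test.

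Burying beetles breed on small carcasses, and both parents usually tend the larvae. In the study, an FC population had evolved with full parental care and an NC population without care after hatching, each kept as 2 replicate lines (F1 and F2, N1 and N2) that came from the same source beetles. Larvae of generation 30 from each population were raised in the FC environment, where parents stayed, or in the NC environment, where both parents were removed 53 h after pairing. First-instar heads were collected at 80 h, 4 heads of 1 family made 1 library, and polyadenylated RNA was sequenced. There were 12 libraries of the FC population in the FC environment (FCpop/FCenv), 11 of the FC population in the NC environment (FCpop/NCenv), 11 of the NC population in the FC environment (NCpop/FCenv) and 12 of the NC population in the NC environment (NCpop/NCenv). Lines F1 and N1 belonged to block 1 and lines F2 and N2 to block 2, so that block and pair of lines cannot be told apart. A library name such as F1_03 gives the line and the family.

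Genes with steady RNA levels are used as reference genes, against which the level of other genes is measured in assays such as quantitative PCR. Sequencing counts carry no absolute scale, because a library is read to a given total whatever amount of RNA the cells held. A gene can therefore be steady only relative to something, such as the total of all counts or the bulk of the other genes, and in a bulk sample fewer cells of a type and less RNA per cell cannot be told apart. The gene table used here gave symbols and gene types without product names, so the genes are called by their symbols and no function is given.

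The libraries held 102719698 to 145666277 counts each (median 115258788). At these totals the mean count of a member ran from 1214 to 58280, and the lowest count of any member in any library was 810. The CV that counting error alone would give at the mean count ran from 0.00414 to 0.0287, with a median of 0.0107, below the CV measured in every member. All 150 genes passed the filter on low counts used in the tests. Among the 242 pairs of libraries within a group none agreed within sampling noise, the lowest chi-square per degree of freedom being 202. Markers of tissue were not analysed here.

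The CV of the 150 genes ran from 0.0614 to 0.107 with a median of 0.0992. Over the 6191 genes of the same range of means the median was 0.223, the quartiles were 0.170 and 0.326, and the highest was 3.07. Between its lowest and its highest library a member differed by 1.25-fold to 2.11-fold, with a median of 1.56-fold, against a median of 2.63-fold over the 6191 genes. The gene with the widest range was LOC108559005, and the gene with the narrowest was LOC108568533. Steady genes were found at every level, but not in equal numbers. When the 6191 genes were divided by mean CPM into 5 classes of equal size, the members numbered 2, 16, 27, 37 and 68 from the lowest class to the highest, while the median CV of all genes in a class lay between 0.211 and 0.245.

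**Figure D1:**
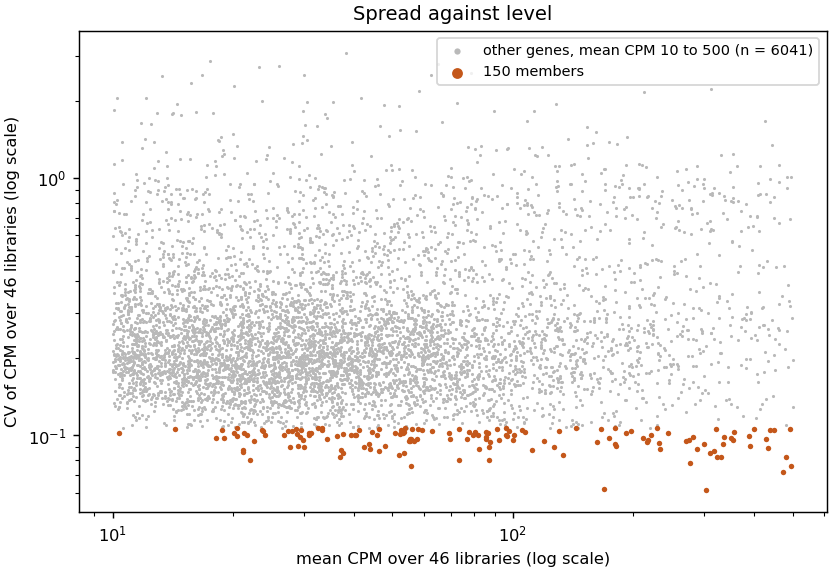
The CV of CPM over the 46 libraries (vertical axis, log scale) against the mean CPM (horizontal axis, log scale) for the 6191 genes with a mean CPM from 10 to 500. Each point is a gene, and the 150 members, in orange, form the lower edge of the cloud, from 0.0614 to 0.107.

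The limit of rank 150 fell within a continuous run of values. Just inside it were LOC108563989, LOC108568992 and LOC108563323, the last with a CV of 0.1069. Just outside were LOC108568291 and LOC108566046, also at 0.1069, and LOC108557539 at 0.1070. Nothing in the values separated the last members from the first genes left out.

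The steadiest gene was LOC108568533, at 304.4 ± 18.7 CPM (SD, n = 46). In FCpop/FCenv it ran from 278.1 CPM through a median of 299.5 CPM to 332.0 CPM, and in FCpop/NCenv from 276.6 through 298.3 to 345.5 CPM. In NCpop/FCenv the values were 278.2, 293.7 and 318.2 CPM, and in NCpop/NCenv 280.6, 316.2 and 333.1 CPM. The 4 groups overlapped over nearly their whole range. LOC108566432, at rank 2 with a CV of 0.0621, ran from 159.5 through 173.7 to 198.5 CPM in FCpop/FCenv and from 159.5 through 169.5 to 179.5 CPM in FCpop/NCenv. It ran from 137.2 through 165.9 to 183.8 CPM in NCpop/FCenv and from 155.5 through 169.4 to 185.6 CPM in NCpop/NCenv. Again no group stood apart, and the lowest value belonged to a single library, N1_27.

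LOC108564789 had a CV of 0.0719 and ran from 394.8 CPM to 544.0 CPM over all libraries, with group medians from 469.3 to 478.2 CPM. LOC108565927, with a CV of 0.0759, had its lowest median in NCpop/FCenv, at 52.5 CPM, and its highest in FCpop/FCenv, at 57.4 CPM. The 11 NCpop/FCenv libraries of that gene reached only 55.0 CPM, within the range of each of the other groups. LOC108565449 had a CV of 0.0762 and group medians from 481.5 to 498.0 CPM, and it reached 612.5 CPM in FCpop/NCenv and 585.4 CPM in NCpop/FCenv. For LOC108557519 and LOC108567979 the CV was 0.0785 and 0.0801, and for LOC108565314 and LOC108559834 it was 0.0803 each. In these 4 genes as well the ranges of all 4 groups overlapped.

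LOC108569381, at rank 10 with a CV of 0.0822, had the largest share of variance between groups and blocks among the first 10. Its median was 309.1 CPM in FCpop/FCenv, with values from 264.6 to 350.4 CPM, and 350.6 CPM in FCpop/NCenv, with values from 311.9 to 388.0 CPM. In the NC population the medians were 303.3 CPM with care (from 291.6 to 338.0 CPM) and 323.4 CPM without (from 294.6 to 362.7 CPM). Groups and blocks accounted for 44.2% of its variance, against 14.5% for LOC108568533 and 2.06% for LOC108564789.

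**Figure D2:**
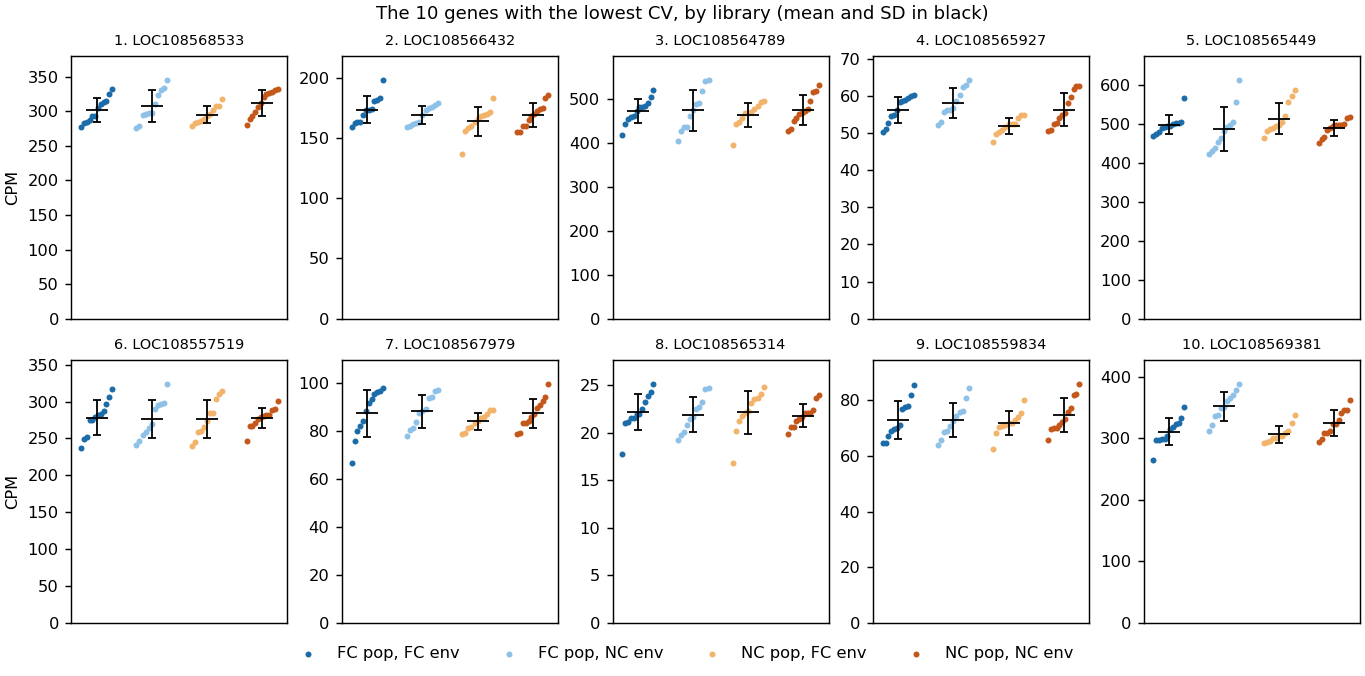
CPM (vertical axes, each from 0) of the 10 genes with the lowest CV in each of the 46 libraries, by population (pop) and environment (env). Points are libraries ordered by value within a group, and black marks are the group mean and SD. The groups overlap in every panel, and LOC108569381 has its highest median, 350.6 CPM, in the FC population without care.

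The next values come from the same CPM by which the members were chosen, and a low total spread limits both parts of the variance, so they are given as a description only. The median share of the variance that lay between groups and blocks was 14.5% over the 150 members and 27.6% over the 6191 genes, and within the members it ran from 0.0690% to 58.6%. After groups and blocks were taken out, the residual CV had a median of 0.0926 in the members and 0.187 in the 6191 genes.

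Within the groups, the median CV of the members was 0.0840 in FCpop/FCenv and 0.0950 in FCpop/NCenv, and 0.0796 in NCpop/FCenv and 0.0915 in NCpop/NCenv. The CV was higher without care in 84 of the 150 members (56.0%) in the FC population and in 98 (65.3%) in the NC population, where the shares over the 6191 genes were 48.5% and 64.1%. Among larvae without care, 68 members (45.3%) had a higher CV in the NC than in the FC population, and 65.1% of the 6191 genes did. With care 63 members did, and 40.7% of the 6191 genes. These shares describe the libraries, and a difference in spread between the groups was not tested. By line, the median CV of the members was 0.101 in F1 and 0.0886 in F2, the lines of the FC population, and 0.0979 (N1) and 0.0791 (N2) in those of the NC population.

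Single libraries set many of the extremes. F1_03, a family of FCpop/NCenv, held the highest value of 22 members, N1_30 of NCpop/NCenv that of 21, and F1_20 of FCpop/FCenv that of 19, together 62 of 150. The maxima were spread over 32 libraries in all and the minima over 34, with N1_37 lowest for 13 genes and N1_22 for 11. Of the 46 libraries these 3 were chosen after their values were seen.

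The 22 genes highest in F1_03 stood there at 1.14 to 1.37 times their own mean over the libraries, with a median of 1.30. The same genes were raised in several other libraries, with medians of 1.16 in F1_04, 1.14 in F1_14 and 1.12 in N1_22, and were low in F1_06 at 0.866, F2_43 at 0.893 and N1_32 at 0.899. The libraries named here as high came from both populations and both environments, and all from block 1. In block 2 these 22 genes had a median of 1.09 in N2_01. The 21 genes highest in N1_30 had a median of 1.25 times their mean there and of 1.13 in N1_33, and the 19 highest in F1_20 a median of 1.24.

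The choice of scale changed which genes were steady. TMM and DESeq2 each estimate, for every library, a factor from the bulk of the genes rather than from the total, and the TMM factor ran from 0.870 to 1.27 of the library total. Of the 150 genes, 39 were also among the 150 with the lowest CV when CPM was scaled by TMM, and 36 when it was scaled by DESeq2's size factors. The lists from those 2 scalings shared 143 of their 150 genes. With TMM the median CV of the members was 0.120, and that of the 6191 genes was 0.215. The members were chosen for a low CV in these same libraries, so a lower median was largely built in by the rule. With TMM the ranks of the members ran from 4 to 1696 with a median of 618.5.

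LOC108568533 ranked 20th with TMM and LOC108559834 ranked 13th, with a CV of 0.0674. LOC108566432 ranked 226th, at a CV of 0.101, and LOC108564789 ranked 579th, at 0.118. Only 1 of the 22 genes highest in F1_03 was among the 150 steadiest with TMM, against 12 of the 21 genes highest in N1_30 and 5 of the 19 highest in F1_20. N1_30 had the largest TMM factor of all libraries, 1.27, and its 21 genes, at 1.25 times their mean by library total, stood there at 0.985 with TMM.

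By library total, the median of the 150 members, each over its own mean, ran from 0.927 in F1_09A to 1.08 in F1_04. It averaged 0.999 ± 0.0272 (SD, n = 23) in the FC environment and 0.995 ± 0.0405 (n = 23) in the NC environment. With TMM the same quantity ran from 0.810 in N1_30 to 1.12 in N2_16, and averaged 1.03 ± 0.0647 with care and 0.964 ± 0.0768 without. The TMM factor itself had a median of 0.940 in the FC environment and 1.01 in the NC environment. The libraries of both environments overlapped on either scale. The rule chose genes that were level by library total over both environments, and dividing by the TMM factor lowers them where that factor is high, so neither pair of means is a finding about the members.

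**Figure D3:**
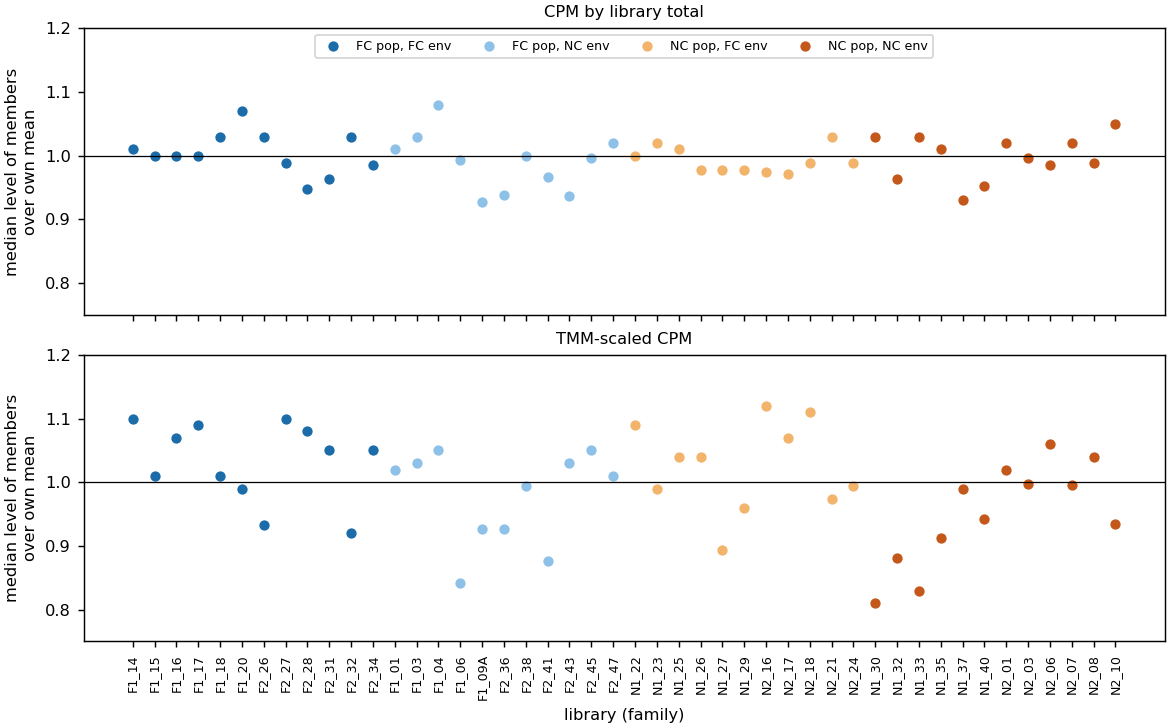
The median of the 150 members, each divided by its own mean over the 46 libraries (vertical axis), in each library (horizontal axis), with CPM by library total above and TMM-scaled CPM below. Points are libraries coloured by population and environment. The points lie between 0.927 and 1.08 above and between 0.810 and 1.12 below.

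Loss of care was compared with care in each population by edgeR's quasi-likelihood test, with TMM scaling, the block as a covariate and 11777 genes tested. A gene was called at a Benjamini-Hochberg adjusted p under 0.01. Because the members were chosen for a small total spread, which includes the spread between groups, the counts below describe them and are no test of how they differ from other genes. In the FC population 23 members fell without care and 0 rose, where 34.8% of all genes tested were called, 18.2% lower and 16.6% higher. In the NC population 14 fell and 0 rose, where 20.1% were called, 11.4% lower and 8.64% higher. Among the 6191 genes of the same range of means falls were also more frequent than rises. In the FC population 29.2% of them were called lower and 13.5% higher, and in the NC population 18.8% lower and 9.69% higher. At an adjusted p under 0.05 there were 33 members (32 lower, 1 higher) and 31 members (all lower), beside 47.5% and 34.1% of all genes. With a log2 fold change of at least 1 required as well, 0 members were called, beside 7.06% and 2.31% of all genes. Within the blocks fewer were called. In the FC population there were 2 members in block 1 alone, beside 9.24% of all genes, and 9 in block 2 alone (7 lower, 2 higher), beside 17.8%. In the NC population there were 3, beside 5.59%, and 2, beside 9.61%, all lower. The median log2 fold change of the members was -0.07 and -0.06 in blocks 1 and 2 of the FC population, and -0.16 and -0.08 in those of the NC population. Over all genes tested it was 0.08 and 0.04 in the FC population, and 0.05 in each block of the NC population.

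The log2 fold changes of the members ran from -0.33 to 0.16 in the FC population, with a median of -0.08 and 115 of 150 below 0, and the median over all genes tested was 0.06. In the NC population they ran from -0.37 to 0.07, with a median of -0.10 and 134 of 150 below 0, and the median over all genes was again 0.06. Over the 6191 genes of the same range of means the medians were -0.09 in the FC population and -0.05 in the NC population. The 2 comparisons share no libraries. The calls had 10 genes in common, 43.5% of the 23 and 71.4% of the 14, and 27 genes were called in one or the other. Over all genes tested, 2002 were called in both, 48.8% of the calls in the FC population and 84.6% of those in the NC population.

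LOC108568992, at the edge of the set in rank 149, had the largest fall in the FC population. Scaled by TMM, it ran from 131.8 through a median of 156.6 to 182.3 CPM in FCpop/FCenv and from 117.4 through 123.9 to 141.3 CPM in FCpop/NCenv. Only the lowest libraries with care reached the range of those without care, and the log2 fold change was -0.33 (SE 0.0584, edgeR adjusted p = 1.70e-05). LOC108559168 ran from 31.6 through 40.3 to 44.4 CPM with care and from 27.8 through 32.1 to 36.6 CPM without, a log2 fold change of -0.32 (SE 0.0604, edgeR adjusted p = 4.26e-05). LOC108562491 changed by -0.30 (SE 0.0545, edgeR adjusted p = 2.48e-05). The ranges of LOC108559168 with and without care overlapped in part.

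In the NC population the largest fall was that of LOC108559546, from a median of 104.1 CPM in NCpop/FCenv (88.7 to 127.2) to 81.3 CPM in NCpop/NCenv (67.6 to 93.0), on the TMM scale. Its log2 fold change was -0.37 (SE 0.0703, edgeR adjusted p = 7.74e-05). LOC108563751 followed, with a median of 112.3 CPM with care (93.2 to 128.1) and 87.4 CPM without (75.8 to 101.9), and a log2 fold change of -0.35 (SE 0.0646, edgeR adjusted p = 5.93e-05). LOC108561343 fell from a median of 485.3 CPM (417.4 to 544.3) to 392.2 CPM (363.5 to 439.6), by 0.30 on the log2 scale (SE 0.0523, edgeR adjusted p = 2.73e-05). In these 3 genes the ranges with and without care overlapped in part. All 3 were among the 10 called in both populations, with log2 fold changes of -0.28, -0.22 and -0.23 in the FC population.

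Every one of these falls was measured against TMM, and the direction over the whole set depended on it. With library totals in place of TMM the median of all genes moved up by 0.12 in the NC population, by 0.11 between the native groups and by 0.065 in the FC population, and the members moved with it. Their median was then -0.02 in the FC population and 0.02 in the NC population, with 66 and 83 members above 0. Relative to the median of all genes it was -0.14 in the FC population and -0.17 in the NC population with TMM, and -0.14 and -0.16 with library totals. A change of scale moves all genes of a comparison nearly alike. The likeness of these values was therefore fixed in advance, and nothing is read from it. The TMM medians of the 6191 genes, -0.09 and -0.05, lay nearer to those of the members. In the FC population that median was below the members' own, and in the NC population above it.

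With library totals 18 members were called in the FC population, of which 13 fell and 5 rose, beside 30.1% of all genes, and 6 in the NC population, of which 2 fell and 4 rose, beside 17.6%. The 5 that rose in the FC population were LOC108562477, LOC108567077, LOC108563201, LOC108559962 and LOC108569381, named after their values were seen. LOC108567077 rose in both populations, by 0.22 (SE 0.0506, edgeR adjusted p = 6.89e-04) and 0.19 (SE 0.0506, edgeR adjusted p = 0.00378) on the log2 scale, and with TMM its log2 fold changes were 0.14 and 0.07 with adjusted p of 0.0823 and 0.421. LOC108569381 changed by 0.18 in the FC population (SE 0.0474, edgeR adjusted p = 0.0021), and with TMM by 0.12 (adjusted p = 0.0739). The falls of LOC108568992, LOC108559168 and LOC108562491 in the FC population and of LOC108559546 and LOC108563751 in the NC population were called on both scales, while that of LOC108561343 in the NC population was called with TMM and had an adjusted p of 0.0151 with library totals.

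None of the 150 genes differed between the populations at this threshold. With care, 0 members were called beside 0.0849% of all genes tested, and 8 members and 887 of all genes had an unadjusted p under 0.05. Without care, 0 were called beside 0.331%, and 12 members and 1951 of all genes had an unadjusted p under 0.05. The log2 fold changes of the NC against the FC population ran from -0.15 to 0.10 with care and from -0.20 to 0.15 without. DESeq2 also called 0 members in both comparisons, beside 0.161% of all genes with care and 1.2% without. Within each block edgeR called 0 members too, beside 0.034% (block 1) and 0% (block 2) of all genes with care. Without care these shares were 0.0085% and 0.453%. At shares this low few or no calls would be found among any 150 genes, so nothing is read from these counts of 0. The median of the members was -0.06 in block 1 and 0.05 in block 2 with care, and -0.12 and 0.02 without. Over all genes tested it was 0.02 and -0.02 with care, and -0.02 and -0.01 without. For the difference in response to lost care between the populations, 0 members and 0% of all genes were called, with 7 members and 940 of all genes at an unadjusted p under 0.05.

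Between the native groups, NCpop/NCenv and FCpop/FCenv, 23 members were lower and 0 higher in NCpop/NCenv, where 22.8% of all genes tested were called, 12.5% lower and 10.4% higher. Among the 6191 genes of the same range of means 20.4% were called lower and 9.37% higher. At an adjusted p under 0.05 there were 48 members, beside 37.6% of all genes, and with a log2 fold change of at least 1 there were 0, beside 3.75%. In block 1 alone 15 members were called, all lower, beside 14.6% of all genes. In block 2 alone edgeR called 0, beside 4.67%, and 17 members and 3171 of all genes had an unadjusted p under 0.05. The median of the members was -0.22 in block 1 and -0.03 in block 2, beside 0.06 and 0.01 over all genes tested. The difference between the blocks was not tested. This comparison shares its control libraries with that of lost care in the FC population and its NCpop/NCenv libraries with that in the NC population. The families of each population came from only 2 lines, while the test took families as the replicates. The log2 fold changes ran from -0.31 to 0.10 with a median of -0.12, and the median over all genes was 0.05. Over the 6191 genes it was -0.06. LOC108560270 had the largest difference, from a median of 95.6 CPM in FCpop/FCenv (72.7 to 103.0) to 70.7 CPM in NCpop/NCenv (65.1 to 89.9) on the TMM scale, a log2 fold change of -0.31 (SE 0.0603, edgeR adjusted p = 1.12e-04). The lower libraries of FCpop/FCenv overlapped with those of NCpop/NCenv. LOC108561343 and LOC108559546 differed by -0.31 and -0.30. With library totals 6 members were called, beside 18.5% of all genes, 4 lower and 2 higher, the latter being LOC108567077 and LOC108556897.

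**Figure D4:**
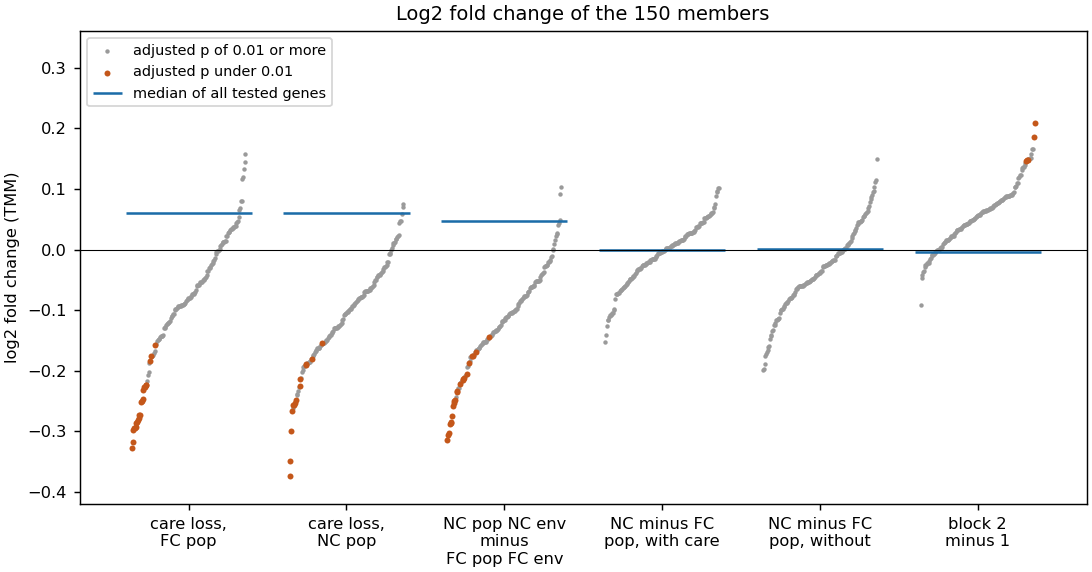
Log2 fold change with TMM scaling (vertical axis) of each of the 150 members in 6 comparisons, ordered by value within each. Orange points had an edgeR adjusted p under 0.01, and blue lines are the median of all 11777 genes tested. In the first 3 comparisons every orange point lies below 0, and most members lie below the blue line. The medians of the 6191 genes with a mean CPM from 10 to 500 there were -0.09, -0.05 and -0.06. With library totals the medians of the members in these 3 lay at -0.02, 0.02 and -0.002.

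Between the blocks 5 members were higher in block 2 and 0 lower, where 4.26% of all genes tested were called, 2.58% higher and 1.68% lower. At an adjusted p under 0.05 there were 13, beside 12.1%, and with a log2 fold change of at least 1 there were 0, beside 0.263%. LOC108563534 ran from 36.5 through a median of 43.5 to 52.9 CPM in block 1 and from 42.7 through 51.2 to 62.9 CPM in block 2 on the TMM scale, a log2 fold change of 0.21 (SE 0.0429, edgeR adjusted p = 0.00159). The blocks overlapped in the middle of that range. LOC108565172 differed by 0.18 and LOC108556890 by 0.15, and LOC108568093 and LOC108562787, named after their values were seen, by 0.15 each. Of the members, 125 lay above 0, with a median of 0.06, and the median over all genes was -0.004. Over the 6191 genes of the same range of means the median was 0.02, and 3.65% of them were called higher and 1.34% lower. With library totals, where 2.64% of all genes were called, 57 members lay above 0. The median of all genes moved alike, to -0.07, and that of the members was 0.06 above it on both scales. Because a change of scale moves all genes nearly alike, this distance could not change, and nothing is read from it. The only member called with library totals was LOC108557424, lower in block 2 by 0.16 on the log2 scale (SE 0.0342, edgeR adjusted p = 0.00275).

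Over the 7 comparisons 35 members (23.3%) were called at least once with TMM and 115 in none, beside 42.8% of all genes tested. None of the 10 genes with the lowest CV was called at an adjusted p under 0.01. Between the native groups LOC108566432 (edgeR adjusted p = 0.0459) and LOC108565927 (edgeR adjusted p = 0.044) passed 0.05, where 37.6% of all genes did. Both were lower in NCpop/NCenv, by 0.15 and 0.11 on the log2 scale. The ranks of the 35 members called ran from 14 (LOC108567582) to 149 (LOC108568992). A difference between groups adds to the CV by which the members were ranked, so nothing is read from that order.

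The steady genes also depended on which libraries were read. The 150 genes with the lowest CV in block 1 alone included 90 of the members and those of block 2 alone included 87, and the lists of the separate blocks shared 42 genes with each other. From the FC environment alone 61 members were chosen and from the NC environment alone 68. These lists shared 29 genes, 19.3% of each. The populations alone gave 90 (FC) and 95 (NC) of the members.

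**Figure D5:**
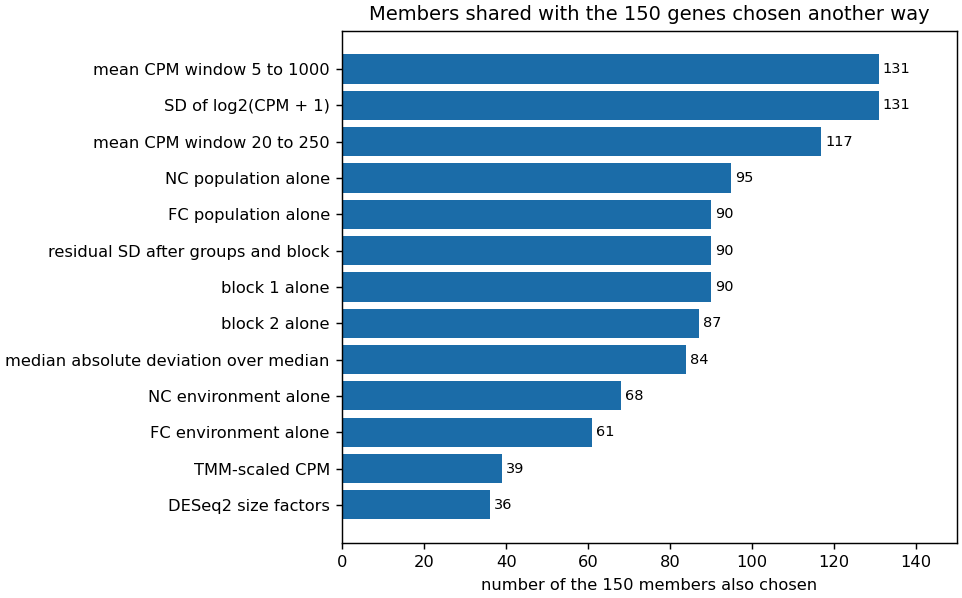
Number of the 150 members (horizontal axis) that were also among the 150 steadiest genes when the scale, the measure of spread, the range of mean CPM or the libraries were changed, 1 bar for each change. The bars run from 36 with DESeq2 size factors to 131 with the SD of log2(CPM + 1).

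A few features that the rule did not use were read from the gene table. All 150 members were protein coding, as were 6146 of the 6191 genes. The gene span had a median of 2408 bases in the members, 3090 in the 6191 genes and 2193 in all 13761 genes. More than 1 transcript was annotated for 42 of the members and 34.5% of the 6191 genes, and a neighbouring gene overlapped 36 of the members and 21.4% of the 6191 genes. Overlap was judged from the start and end of adjacent records, without knowing which piece of the assembly each lies on. Some overlaps may therefore be false and others missed. Where genes overlap, reads can be counted to either. Of the genes described above, this holds for LOC108566432, LOC108564789, LOC108562491, LOC108561343, LOC108560270, LOC108563534 and LOC108565172 among others.

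In 3 cases both of a pair of neighbouring gene records were members. LOC108559170 and LOC108559168 overlapped each other, so their levels of 166 and 36.3 CPM are uncertain in how the counts were divided. LOC108560323 had a mean of 330 CPM and a CV of 0.0828, and its neighbour LOC108560322 a mean of 27.4 CPM and a CV of 0.104. LOC108563751 and LOC108563749, at CVs of 0.105 and 0.0971, both fell without care in the NC population, by 0.35 and 0.19 on the log2 scale with TMM, and with library totals only LOC108563751 was called. CPM is not corrected for gene length, so the levels of different genes are not compared.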

How the data were processed

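RNA was measured in 46 libraries of larval heads. Of the 60 samples in the labels, 14 are bisulfite libraries and were not analysed here. Per the labels and the study's methods, the authors trimmed reads with TrimGalore 0.5.0, mapped them with HISAT2 2.1.0, quantified RefSeq genes with StringTie 2.0.3 and deposited whole-number counts per gene without normalization. StringTie derives counts from read coverage, so the counting error given is approximate. Of the 13761 genes, 508 were at 0 in every library, and 0 columns belonged to no sample. Library totals lay between 102719698 and 145666277. Identifiers were paired with RefSeq symbols by their place in the assembly's gene list, and 82 of 82 identifier pairs printed by the study matched. Population and block of each line come from the family names in the labels and from the study's methods.

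CPM, CV and the 150 genes were computed from library totals. Tests used edgeR 4.0.16 in R 4.3.3 (TMM, quasi-likelihood, 4 groups and block in 1 fit) on the 11777 genes that reached 15 counts in 10% or more of the libraries, with Benjamini-Hochberg adjustment over all of them. Only the edgeR fit was tried on simulated counts, for loss of care in the FC population and with changes larger than any of the members. The choice of members and the CV were not simulated. Alternatives were DESeq2 1.42.0, its size factors, library totals, other filters, thresholds, measures of spread and CPM ranges, subsets of libraries and each library left out. Families of 1 group are the replicates. Each population was kept as only 2 lines, and the fit held no term for the line within a population. In the comparisons between populations, the native groups among them, families of a line are therefore not independent replicates of a population. Named genes were the 10 lowest CVs, the highest and lowest means, those at the limit, and the 3 largest called changes in each direction per comparison, of which the text gives those that bear on a result. Members and lists were chosen with earlier results of these data known.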

Additional observations from a re-analysis of the deposited data

Results flagged for a closer look

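The 10 genes with the lowest CV and the median level of all members were searched for a library far from the others of its line and environment, in 88 groups of 5 or 6 libraries. In 3 of them 1 library lay far from the rest, where chance would mark about 1 in 20. The 3 flags were thus no more than that rate gives over 88 groups. LOC108564789 stood at 395 CPM in N1_27 (NCpop/FCenv), and the other N1 libraries with care lay between 456 and 493 CPM. In the same library LOC108565314 stood at 16.8 CPM, against 21.8 to 24.1 CPM in the others. LOC108565449 stood at 565 CPM in F1_14 (FCpop/FCenv), against 479 to 504 CPM in the other F1 libraries with care. The cause was not tested.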

How the results depend on the processing

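No paired analysis was possible because each family belonged to 1 group only. Of the 150 members, other ways of choosing kept 39 (TMM), 36 (DESeq2 size factors), 90 (residual SD after groups and block), 84 (median absolute deviation over median), 90 and 87 (block 1 and block 2 alone), 61 and 68 (FC and NC environment alone) and 90 and 95 (FC and NC population alone). The SD of log2(CPM + 1) kept 131, and mean CPM ranges of 5 to 1000 and 20 to 250 kept 131 and 117. Leaving out 1 library kept 128 (without N1_30) to 147, and 120 members stayed under each of the 46 omissions. Without F1_03, F1_20 and N1_30 together, an alternative chosen after seeing the data, 126 stayed. The median CV was 0.1196 with TMM and 0.1197 with DESeq2 size factors, and 0.0992 as chosen.

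For lost care in the FC population, 2 members were called in block 1 alone and 9 in block 2 alone (7 lower, 2 higher), and 18 to 24 with 1 library left out. In the NC population 31 were called at an adjusted p under 0.05, 6 with library totals, 3 and 2 in block 1 and block 2 alone, and 9 with only the groups compared in the fit, beside 19.1% of all genes. With 1 library left out there were 6 (without N1_22) to 18 (without N1_27). Between the native groups 48 were called at an adjusted p under 0.05, 6 with library totals, 15 in block 1 alone and 0 in block 2 alone (17 members and 3171 of all genes at an unadjusted p under 0.05), and 13 (without F2_28) to 28 with 1 library left out. Between the blocks 13 were called at an adjusted p under 0.05, 3 with DESeq2 size factors in edgeR (4.26% of all genes), 1 with library totals, 3 without the filter on low counts (3.42%), 3 without F1_03, F1_20 and N1_30 (2.20%), and 1 to 5 with 1 library left out. A required log2 fold change of 1 left 0 members in each comparison. A single block holds fewer libraries, and otherwise the cause was not tested. Comparisons of the populations and the interaction called 0 members with TMM, library totals and DESeq2, beside at most 1.2% of all genes. The log2 fold changes of the named calls kept their sign under all alternatives run, but not all stayed called. In block 1 alone 7 kept an adjusted p under 0.01 and 2 did not, and in block 2 alone 2 did and 7 did not. With library totals 8 did and 4 did not, and with DESeq2 all 12 did. Over the fits with 1 library left out, it was kept in 476 cases and lost in 76. The lowest count of a member was 810, and an effect of depth was not tested.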

Other observations

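Only 4 members were among the 150 steadiest genes by library total, with both other scalings, in each block alone and in each environment alone. They were LOC108568533 (rank 1), LOC108565927 (rank 4), LOC108559834 (rank 9) and LOC108556558 (rank 17), picked out after their values were seen. Their CVs were 0.0614, 0.0759, 0.0803 and 0.0854 by library total and 0.0703, 0.0802, 0.0674 and 0.0722 with TMM. LOC108556558 was higher without care in the NC population with library totals, by 0.17 on the log2 scale (SE 0.0489, edgeR adjusted p = 0.00789), and by 0.05 with TMM (adjusted p = 0.419).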
